A study of Mus musculus with 8 samples.

Results

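The genes described here encode 9 proteins of the cytotoxic granule, the secretory lysosome with which CD8 T cells and natural killer (NK) cells kill. They are the granzymes Gzma, Gzmb, Gzmk and Gzmm, the pore-former Prf1, and the granule proteins Nkg7, Ctsw, Srgn and Lamp1. They were chosen by name and found by the gene symbol in the deposited files, 9 of the 55335 genes listed there. RNA came from cells sorted as CD8 T cells out of B16 melanomas, a mouse tumour line, that had grown for 14 days after intravenous injection. The hosts were CD36 KO mice on the C57BL/6 background, and wild-type C57BL/6 mice. No treatment other than the tumour is named in the labels. The sample titles name 4 sequencing lanes of 1 library number per genotype, so there was 1 CD36 KO library and 1 WT library, and 8 lanes in all. The number of animals behind each library is not stated in the labels. With 1 library per genotype there is no replicate of the genotype, no test was made and no p-value is given. Intervals below are 95% intervals for counting error alone, and the reads carry no molecular identifiers, so they may be too narrow even for that.

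When a killer cell recognises its target, granules travel to the contact site, fuse with the plasma membrane and release perforin and granzymes. Perforin opens pores, and granzymes are serine proteases that pass through them and start cell death in the target. Inside the granule these cargo proteins are held on serglycin, a proteoglycan, and the granule membrane carries lysosomal proteins such as LAMP1. Granzymes and perforin are largely restricted to CD8 T cells and NK cells, while serglycin is made by many blood cells and LAMP1 by nearly all cells.

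The libraries held 10363391 counts (CD36 KO) and 10071960 counts (WT), with 2569962 to 2611740 and 2497048 to 2538468 per lane. Cd36, the targeted gene, had 107, 86, 88 and 77 counts in the CD36 KO lanes, against 287, 299, 307 and 301 in the WT lanes, so its direction went with the labels, although its RNA was not absent. Cells were sorted as CD8 T cells, but markers of other cells were abundant in both libraries. The 10 melanoma genes examined summed to 894 to 938 CPM (counts per 1000000) over the CD36 KO lanes and 4141 to 4269 CPM over the WT lanes, and the 10 macrophage genes to 3533 to 3562 and 4710 to 4744 CPM. Lyz2 alone held 28365 of the 39339 macrophage gene counts in the CD36 KO library and 30896 of 44436 in the WT library. The 12 CD8 T cell genes (Cd8a, Cd8b1, the CD3 chains and others) summed to 1088 to 1130 CPM in the CD36 KO lanes and 329 to 339 CPM in the WT lanes. Apart from Cd8a and Cd8b1 they are genes of T cells in general, and some are not confined to T cells, so their sum is not a measure of CD8 T cells alone. All 12 were at least 2-fold higher in the CD36 KO library, as were 6.50% of all measured genes. As summed counts the 12 genes stood 3.29-fold higher (3.17 to 3.43). Genes of some other cells were higher there too. All 7 measured B cell genes (8 examined) were higher, with a median log2 ratio of 2.61 and sums of 210 to 224 CPM in the CD36 KO lanes and 53.7 to 61.3 CPM in the WT lanes. All 6 measured neutrophil genes and all 6 hepatocyte genes were also higher, at median log2 ratios of 1.92 and 2.78. The part of these cells in the granule values was not tested. In RNA from such mixtures, fewer cells of a type and less RNA per cell cannot be told apart. CPM are scaled here by TMM, a factor that allows for a few abundant genes taking up the library. A gene counts as measured at a mean of at least 5 CPM, and as higher or lower when the log2 ratio of CD36 KO over WT is at least 1 in size with an interval that leaves out 0.

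Of the 9 granule genes, 7 were measured, and Gzmk and Gzmm fell under 5 CPM in the mean. Gzma, Gzmb, Prf1, Nkg7 and Ctsw were at least 2-fold higher in the CD36 KO library, Srgn was at least 2-fold lower, and Lamp1 lay between. Across all 12177 measured genes 6.50% were called higher and 10.8% lower, with a median log2 ratio of -0.13. Gzma and Gzmb would not have been measured on their WT level alone, so the count of 5 in 7 partly reflects the filter.

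The sequences upstream of the starts of 5 members are shown because these genes differ in their calls. Gzma, Gzmb, Prf1 and Nkg7 were higher in the CD36 KO library and Lamp1 was not. Each is the 250 bases before the RefSeq start of the gene, from the RefSeq promoter table on GRCm38.p6, read 5′ to 3′ along the gene's strand. RefSeq starts can differ from the GENCODE gene coordinates given below. The window of Nkg7 runs to 43437137, past its GENCODE start at 43437073. Capitals mark matches, on either strand, to TGTGGT (RUNX), GGTGTGA (T-box), TGANTCA (AP-1), TTCNNNGAA (STAT) and CAGGAAG (ETS), short letter patterns known from factors of lymphocytes.
Gzma (chr13:113100982-113101231, minus strand): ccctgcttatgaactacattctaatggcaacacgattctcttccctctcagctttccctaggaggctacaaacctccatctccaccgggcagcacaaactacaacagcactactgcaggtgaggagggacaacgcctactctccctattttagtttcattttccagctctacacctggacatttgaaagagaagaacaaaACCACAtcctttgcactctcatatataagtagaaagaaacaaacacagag
Gzmb (chr14:56262335-56262584, minus strand): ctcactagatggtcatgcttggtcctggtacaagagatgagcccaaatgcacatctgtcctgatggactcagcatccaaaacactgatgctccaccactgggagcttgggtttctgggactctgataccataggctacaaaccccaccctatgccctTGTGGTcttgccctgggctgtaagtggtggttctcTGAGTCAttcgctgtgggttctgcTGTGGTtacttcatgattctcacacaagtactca
Prf1 (chr10:61297586-61297835, plus strand): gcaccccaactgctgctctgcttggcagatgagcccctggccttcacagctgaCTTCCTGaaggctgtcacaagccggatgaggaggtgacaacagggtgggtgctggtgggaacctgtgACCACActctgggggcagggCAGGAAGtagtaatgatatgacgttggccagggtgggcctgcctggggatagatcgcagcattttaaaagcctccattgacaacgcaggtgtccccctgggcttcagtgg
Nkg7 (chr7:43436888-43437137, plus strand): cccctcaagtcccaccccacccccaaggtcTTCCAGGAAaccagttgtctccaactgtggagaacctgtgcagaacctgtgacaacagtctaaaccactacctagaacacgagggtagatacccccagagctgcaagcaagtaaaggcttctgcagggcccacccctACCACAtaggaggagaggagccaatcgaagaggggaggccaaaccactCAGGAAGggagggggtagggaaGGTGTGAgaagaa
Lamp1 (chr8:13158911-13159160, plus strand): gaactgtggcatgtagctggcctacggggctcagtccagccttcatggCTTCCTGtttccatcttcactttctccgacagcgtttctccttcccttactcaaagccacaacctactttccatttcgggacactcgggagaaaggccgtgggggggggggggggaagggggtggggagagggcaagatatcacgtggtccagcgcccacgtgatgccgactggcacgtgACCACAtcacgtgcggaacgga
The table held 10 windows for 8 of the members, all but Ctsw. The RUNX letters stood in 7 of these 10 windows, against 14.0% of the 32851 windows in the table. They lay 50 to 45 bases before the start of Gzma, at 93 to 88 and 34 to 29 bases before that of Gzmb, and 22 to 17 bases before that of Lamp1. The ETS letters stood in 3 of 10 windows (10.8% of all), with 2 matches in the window of Prf1, and the T-box letters in 3 of 10 (3.33%). STAT letters stood in 2 of 10 (7.02%) and AP-1 letters in 1 of 10 (6.75%), that of Gzmb. No matches overlapped one another. A match is a run of letters and not a shown binding site. The window of Lamp1, a gene that was not higher, held RUNX and ETS letters as well. The windows of Srgn, the member called lower, are not shown, and 1 of them held RUNX letters.

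Granzyme A, a tryptase and the most abundant granzyme in both libraries, showed the largest difference of the measured members. Gzma (ENSMUSG00000023132.8; GRCm38 chromosome 13, 113093825 to 113100981, minus strand) had 86, 95, 97 and 82 counts in the CD36 KO lanes, against 12, 7, 9 and 15 in the WT lanes. Every CD36 KO lane lay far above every WT lane. The scaled levels were 32.4 CPM in the CD36 KO library and 4.57 CPM in the WT library, a 7.10-fold difference (5.16 to 9.98; log2 ratio 2.83). That ratio was above the ratio of 99.8% of measured genes. Per length, in TPM (transcripts per 1000000), Gzma stood at 31.2 ± 2.46 in the CD36 KO lanes and 2.78 ± 1.06 in the WT lanes (SD over 4 lanes of 1 library, as for all TPM below).

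Granzyme B, which cleaves its substrates after aspartate and activates caspases, went the same way at a lower level. Gzmb (ENSMUSG00000015437.5; chromosome 14, 56258838 to 56262260, minus strand) had 25, 34, 19 and 29 counts in the CD36 KO lanes and 7, 2, 9 and 3 in the WT lanes. The lanes did not overlap, but with 107 counts in the CD36 KO library and 21 in the WT library the ratio is known only roughly. It was 4.32-fold (2.69 to 7.26; log2 ratio 2.11), and the levels were 5.18 ± 1.21 TPM in the CD36 KO library and 0.80 ± 0.50 TPM in the WT library.

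Prf1 encodes perforin and is the member on which granzyme entry depends. It lies on chromosome 10, 61297833 to 61304680, plus strand (ENSMUSG00000037202.6), and had 51, 67, 60 and 63.2 counts in the CD36 KO lanes, against 17, 15, 15 and 12 in the WT lanes. The lanes of the genotypes stood well apart. The ratio was 3.46-fold (2.60 to 4.69; log2 ratio 1.79), with 6.66 ± 0.75 TPM in the CD36 KO library and 1.38 ± 0.24 TPM in the WT library.

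Granzymes K and M were near the limit of detection. Gzmk (ENSMUSG00000042385.14; chromosome 13, 113171608 to 113225908, minus strand), a tryptase encoded beside Gzma, had 16, 14, 12 and 16 counts in the CD36 KO lanes and 4, 2, 0 and 1 in the WT lanes. Its ratio was 7.02-fold with a wide interval (3.20 to 18.2; log2 ratio 2.81), and the value moved with the processing. The log2 ratio was 1.85 on the log2(TPM + 1) scale, 2.97 with 0.1 added in place of 1, and 3.68 (2.06 to 6.00) without WT lane 1. With protein-coding transcripts alone, 44 counts in the CD36 KO library against 1 in the WT library gave 5.38 (2.83 to 10.7). Its mean of 2.99 CPM kept it out of the count of called genes. Gzmk shares 8440 bases of its locus with Esm1 on the opposite strand, which had 12 counts in the CD36 KO library and 22 in the WT library, and with the strand setting not given, reads of overlapping genes may not be separable. Granzyme M, known best from NK cells, gave 8, 5, 6 and 10 counts in the CD36 KO lanes and 5, 6, 4 and 4 in the WT lanes. For Gzmm (ENSMUSG00000054206.2; chromosome 10, 79689020 to 79695261, plus strand) the lanes overlapped in counts, though not in TPM (1.09 to 2.22 in CD36 KO, 0.70 to 1.07 in WT). The TPM scale as a whole leaned to CD36 KO, with a median log2(TPM + 1) ratio of 0.37 over all measured genes. Gzmm, at 0.58, stood only 0.21 above that median. Its ratio of 1.29-fold had an interval of 0.70 to 2.44 that covers both directions.

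Added together, Gzma, Gzmb, Gzmk, Gzmm and Prf1 had 795 counts in the CD36 KO library and 149 in the WT library. That is 0.00767% of all counts (exact binomial interval 0.00715 to 0.00822) against 0.00148% (0.00125 to 0.00174), or 4.52-fold after scaling (3.79 to 5.43; log2 ratio 2.18). Gzma weighs most in this sum, and without it the total was 3.48-fold higher (2.81 to 4.34). Per length, Gzma made up 63.6 ± 4.1% of the summed TPM of these 5 genes in the CD36 KO library and 43.8 ± 12.5% in the WT library. Prf1 made up 13.6 ± 1.1% in CD36 KO and 22.5 ± 4.9% in WT, and Gzmm 3.56 ± 1.25% in CD36 KO and 13.8 ± 4.9% in WT. The WT shares rest on 149 counts and vary widely between lanes.

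**Figure D1:**
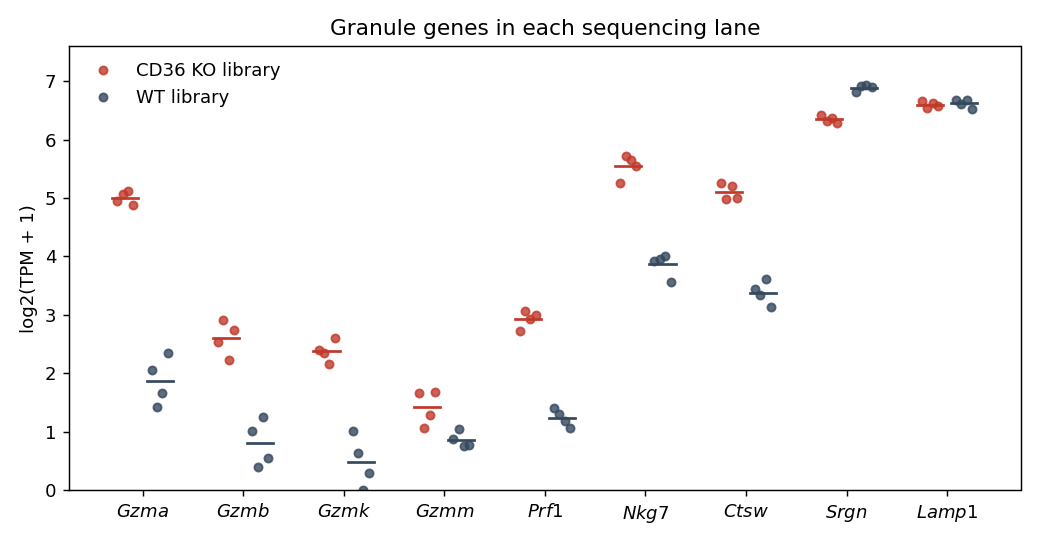
Level of each granule gene in each lane, as log2(TPM + 1), CD36 KO lanes (red) left of WT lanes (dark blue), with bars at the mean of 4 lanes of 1 library. The CD36 KO lanes lie above every WT lane for the 4 granzymes, Prf1, Nkg7 and Ctsw, below them for Srgn, and among them for Lamp1. On this scale the median of all measured genes was itself 0.37 higher in CD36 KO.

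The lymphocyte granule proteins outside the killing set were also higher, by smaller ratios. Nkg7 (ENSMUSG00000004612.9; chromosome 7, 43437073 to 43438249, plus strand), a membrane protein of T and NK cell granules, had 87, 131, 137 and 117 counts in the CD36 KO lanes and 47, 43, 54 and 39 in the WT lanes. All CD36 KO lanes lay above all WT lanes, with lane 1 the lowest of the CD36 KO library. The ratio was 2.19-fold (1.84 to 2.61; log2 ratio 1.13), close to the 2-fold limit, and the levels were 45.9 ± 6.1 TPM in the CD36 KO library and 13.7 ± 1.9 TPM in the WT library. Ctsw (ENSMUSG00000024910.5; chromosome 19, 5465043 to 5468507, minus strand) encodes cathepsin W, a cysteine protease found mainly in CD8 T and NK cells. It had 153, 142, 147 and 141 counts in the CD36 KO lanes and 47, 49, 57 and 42 in the WT lanes, again without overlap. Its ratio was 2.53-fold (2.15 to 3.00; log2 ratio 1.34), at 33.7 ± 3.4 TPM in the CD36 KO library and 9.50 ± 1.43 TPM in the WT library.

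Srgn, the serglycin core protein, ran the other way. Srgn (ENSMUSG00000020077.14; chromosome 10, 62493833 to 62527451, minus strand) had 269, 245, 262 and 236.2 counts in the CD36 KO lanes and 469, 466, 489 and 465 in the WT lanes. Every CD36 KO lane lay below every WT lane, at 0.45 of the WT level (0.42 to 0.49; log2 ratio -1.14). Per length it stood at 80.6 ± 3.4 TPM in the CD36 KO library and 117 ± 4 TPM in the WT library. The 2-fold call depended on the scaling, since the log2 ratio was -0.94 with library totals and -0.54 on the log2(TPM + 1) scale, but the direction did not. Taken from the median of the measured genes, it was -1.01 with library totals and -0.90 on the TPM scale. Serglycin is also made by macrophages, mast cells, neutrophils and platelets. Of the markers of these cells, 3 of 10 macrophage genes were lower and 0 higher, against 10.8% and 6.50% of all measured genes. All 6 measured neutrophil genes were higher, among 9 examined, which summed to 255 to 279 CPM in the CD36 KO lanes and 75.1 to 91.0 CPM in the WT lanes. Of 3 measured platelet genes, Itga2b (log2 ratio 1.53) and Ppbp (1.47) were higher and Pf4 (-1.01) lower. The 3 measured mast cell and basophil genes, among 12 examined, were between. The mast cell protease genes Mcpt4 and Tpsab1 were at 0 in both libraries. Others had a few counts, with Cpa3 at 8 in CD36 KO and 3 in WT, Cma1 at 2 and 1, and Tpsb2 at 0 and 1. Ms4a2 had 14 counts in CD36 KO and 4 in WT. The part of these cells in the level of Srgn was not tested.

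Lamp1, the lysosomal membrane glycoprotein whose appearance at the cell surface marks degranulation, was the most abundant member by counts. Lamp1 (ENSMUSG00000031447.7; chromosome 8, 13159161 to 13175338, plus strand) had 839.9, 761.9, 809.9 and 779.9 counts in the CD36 KO lanes and 1100.8, 981.9, 1050.8 and 923.9 in the WT lanes. On the TMM scale it stood at 0.67 of the WT level (0.64 to 0.70; log2 ratio -0.58), short of 2-fold. In TPM the lanes overlapped, with 95.9 ± 3.6 in the CD36 KO library and 97.4 ± 5.1 in the WT library. Taken from the median of the measured genes, the log2 ratio was -0.45 with TMM and -0.39 with TPM. Lamp1 overlaps 3317 bases of Grtp1, a gene on the opposite strand with 58 counts in the CD36 KO library and 44 in the WT library.

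**Figure D2:**
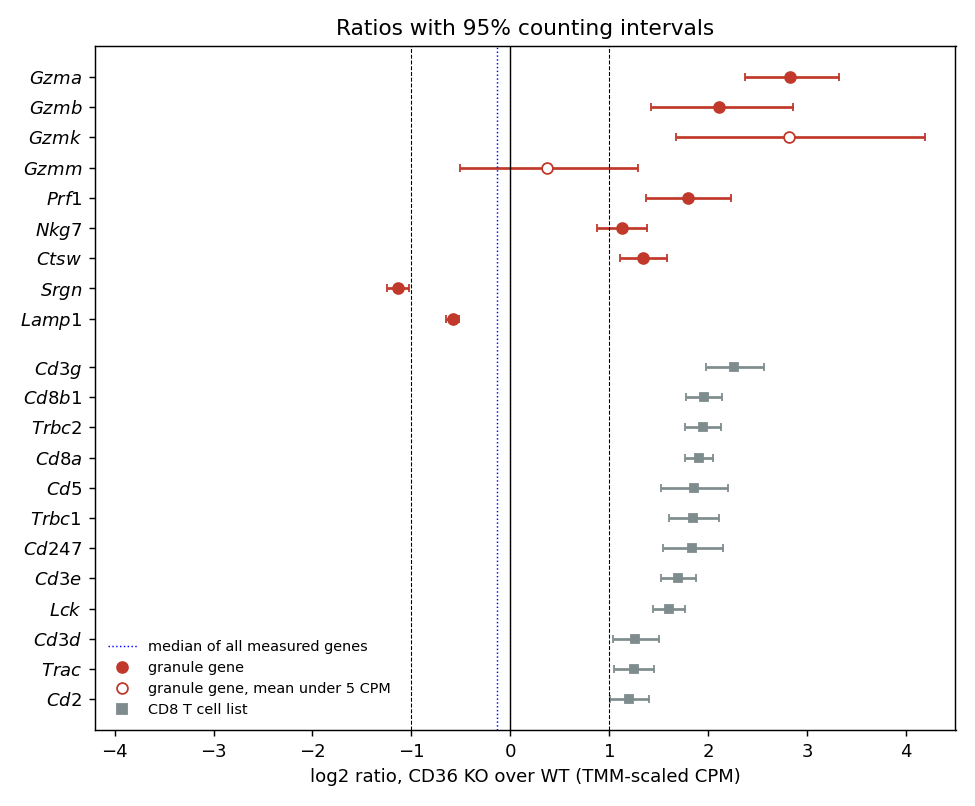
Log2 ratio of CD36 KO over WT (TMM-scaled CPM) with 95% counting intervals for the 9 granule genes (red, open where the mean is under 5 CPM) and the 12 CD8 T cell genes (grey), with dashed lines at 2-fold and a dotted line at -0.13, the median of measured genes. Gzma and Gzmk lie at 2.83 and 2.81, to the right of all grey points, and Srgn and Lamp1 lie left of 0.

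Within each library, the order of the members by TPM was similar but for its ends. In the CD36 KO library Lamp1 came first, followed by Srgn, Nkg7, Ctsw, Gzma, Prf1, Gzmb, Gzmk and Gzmm. Lanes of neighbours overlapped for Nkg7 and Ctsw, Ctsw and Gzma, Prf1 and Gzmb, and Gzmb and Gzmk. In the WT library Srgn came before Lamp1, the order from Nkg7 to Prf1 was the same, and Gzmm, Gzmb and Gzmk, all under 1 TPM, had overlapping lanes. Gzma stood close to Ctsw in the CD36 KO library (31.2 and 33.7 TPM) and well below it in the WT library (2.78 and 9.50 TPM).

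Set against the CD8 T cell genes of the same library, the members separated into groups. For each member the log2 ratio was reduced by that of the summed CD8 T cell genes, which had 12253 counts in the CD36 KO library and 3154 in the WT library. Gzma stood 1.11 above the CD8 T cell genes (0.64 to 1.60). There were 2.94 Gzma counts per 100 counts of CD8 T cell genes in the CD36 KO library and 1.36 in the WT library. The intervals of Gzmk (1.09; -0.04 to 2.47), Gzmb (0.39; -0.30 to 1.14) and Prf1 (0.07; -0.35 to 0.51) covered 0. On the log2(TPM + 1) scale these 3 values were -0.44, -0.51 and -0.60, and that of Gzma was 0.80. With 0.1 added to TPM in place of 1 they were 0.67, 0.25 and -0.10, and that of Gzma was 1.14. The signs of Gzmk and Gzmb in TPM thus depended on the value added. The interval of Gzmk lay above 0 without WT lane 1 (1.89; 0.27 to 4.21), without CD36 KO lane 3 (1.18; 0.02 to 2.57) and with protein-coding transcripts alone (3.53; 0.98 to 8.87). Perforin gave 1.97 counts per 100 in the CD36 KO library and 1.87 in the WT library. Ctsw (-0.38; -0.62 to -0.13), Nkg7 (-0.59; -0.85 to -0.33) and Gzmm (-1.35; -2.23 to -0.43) stood below the CD8 T cell genes, so Nkg7 and Ctsw, higher per library in CD36 KO, were lower there per count of CD8 T cell genes. Lamp1 (-2.30) and Srgn (-2.86) stood far below them, with 26.1 Lamp1 counts per 100 in the CD36 KO library against 129 in the WT library, and 8.26 Srgn counts against 59.9. The 12 CD8 T cell genes themselves ranged from 1.20 (Cd2) to 2.26 (Cd3g), so the choice of T cell genes moves these differences.

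**Figure D3:**
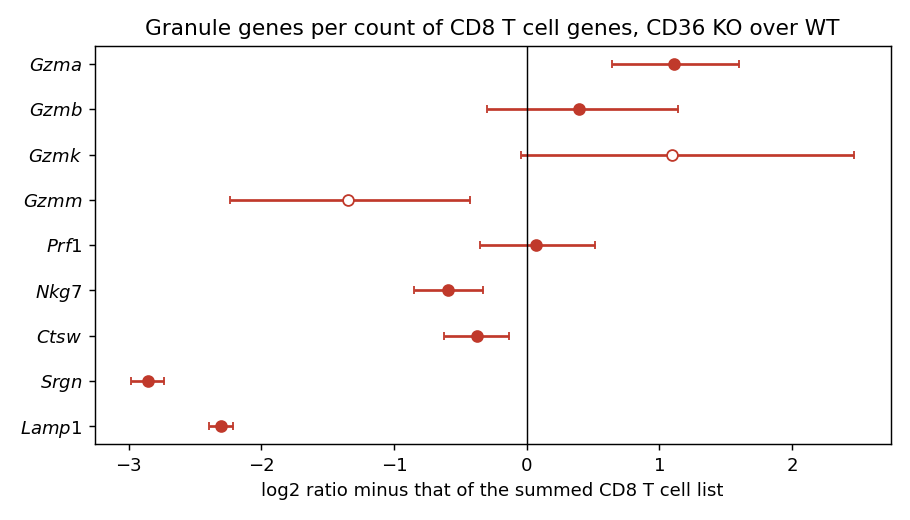
Log2 ratio of each granule gene minus that of the summed CD8 T cell genes, CD36 KO over WT, with exact 95% counting intervals (open where the mean is under 5 CPM). The interval of Gzma lies above 0, those of Gzmb, Gzmk and Prf1 cover 0, and the other 5 lie below 0.

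Markers of other cells that can make granzymes were detected in both libraries. The 8 NK cell genes summed to 25.4 to 29.0 CPM in the CD36 KO lanes and 8.09 to 11.5 CPM in the WT lanes, or 2.82-fold higher in the CD36 KO library (2.22 to 3.61). None of the 8 was at 0. Only Klre1, an NK cell receptor gene, was measured (81 counts in CD36 KO, 28 in WT; log2 ratio 1.29), and Ncr1, which encodes the NK receptor NKp46, had 33 counts in CD36 KO and 14 in WT. Per count of CD8 T cell genes the NK cell genes differed by -0.23 (-0.58 to 0.14), an interval that covers 0. The 6 gamma delta T cell genes had 168 counts in the CD36 KO library and 85 in the WT library, and none was measured. Of the plasmacytoid dendritic cell genes, a cell type that also makes granzyme B, 3 of 6 were measured and all 3 were between, with Siglech at 133 counts in CD36 KO and 131 in WT. The 6 genes summed to 95.1 to 105 CPM in the CD36 KO lanes and 78.6 to 105 CPM in the WT lanes, above the summed granzymes and perforin at 71.6 CPM in the CD36 KO library and 15.8 CPM in the WT library. Tcf4, a transcription factor gene that other cells also express, held most of that sum, with 807 counts in CD36 KO and 664 in WT. Of the CD4 and regulatory T cell genes 3 of 6 were measured and between, among them Cd4 with 119 counts in CD36 KO and 85 in WT. The part of these cells in the granzyme levels was not tested.

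The wider granule pathway was called at shares near those of all measured genes. Of the 27 measured genes of granzyme activation and inhibition, granule sorting, and transport and fusion, 2 (7.41%) were higher and 3 (11.1%) lower, against 6.50% and 10.8% of all measured genes. The other 6 mouse granzyme genes, Gzmc, Gzmd, Gzme, Gzmf, Gzmg and Gzmn, had 0 counts in both libraries. A count of 0 allows up to 0.27 CPM in the CD36 KO library and 0.32 CPM in the WT library, taking 3 counts as the limit. Of the 8 genes that activate or inhibit granzymes, 7 were measured, and their median log2 ratio was -0.07. Cst7, which encodes cystatin F, a granule inhibitor of cathepsins, was higher with 113 counts in CD36 KO and 37 in WT (1.37; 0.83 to 1.95). Serpinb6a was lower (-1.09). Ctsc, the cathepsin that activates granzymes (-0.21), and Serpinb9, the inhibitor of granzyme B (0.22), were among the 5 between.

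Among the genes of granule sorting, transport and fusion, 1 was higher and 2 were lower. Of 7 sorting and membrane genes, all measured, 0 were higher, 1 was lower and 6 were between, with a median of -0.58. Cd63, a tetraspanin of secretory lysosomes, was the lower gene (-1.61), and Lamp2, the closest relative of Lamp1, had the same value as Lamp1 to 2 decimals (-0.58). The mannose 6-phosphate receptors, which sort granzymes, stood at -0.94 (Igf2r) and -0.47 (M6pr). On the log2(TPM + 1) scale Igf2r, M6pr and Lamp2 were at 0.55, 0.07 and 0.01, which against the median of all measured genes of 0.37 leaves Igf2r alone above it. Of 15 transport and fusion genes, 14 were found in the files and 13 measured, and their median was -0.27. Unc13d, which encodes Munc13-4, a priming factor for granule fusion, was higher with 511 counts in CD36 KO and 203 in WT (1.09; 0.86 to 1.34). Rab27a, the GTPase that docks granules and also moves melanosomes, was lower with 478 counts in CD36 KO and 901 in WT (-1.15). The other 11 were between, among them the syntaxin gene Stx11 (0.25) and its partner Stxbp2 (-0.08). All 10 melanoma genes were lower, with a median log2 ratio of -2.33, against 10.8% of all measured genes called lower. The part of melanoma and other cells in the values of Cd63, Rab27a and the other pathway genes was not tested.

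Some regulators of the killing programme and a death ligand were higher. Of 10 measured regulators (11 examined), Stat4 (1.32), Eomes (1.12) and Tbx21, which encodes T-bet (1.08), were higher. Bhlhe40 was lower (-1.44), and 6 were between, among them Runx3 (0.72) and Prdm1 (0.72). Over all measured genes 6.50% were higher and 10.8% lower. Eomes and T-bet are known activators of Gzmb and Prf1. Fasl, the ligand of the second killing route of T cells, had 79 counts in CD36 KO and 29 in WT (1.21; 0.58 to 1.87). At 3.08 CPM it would not have been measured on its WT level alone. Tnfsf10, which encodes TRAIL, stood at 0.99, just under the limit, and Tnf at -0.02. All the ratios named here lay below that of the summed CD8 T cell genes, a log2 ratio of 1.72. Per count of CD8 T cell genes, these regulators and death ligands were thus lower in the CD36 KO library.

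**Figure D4:**
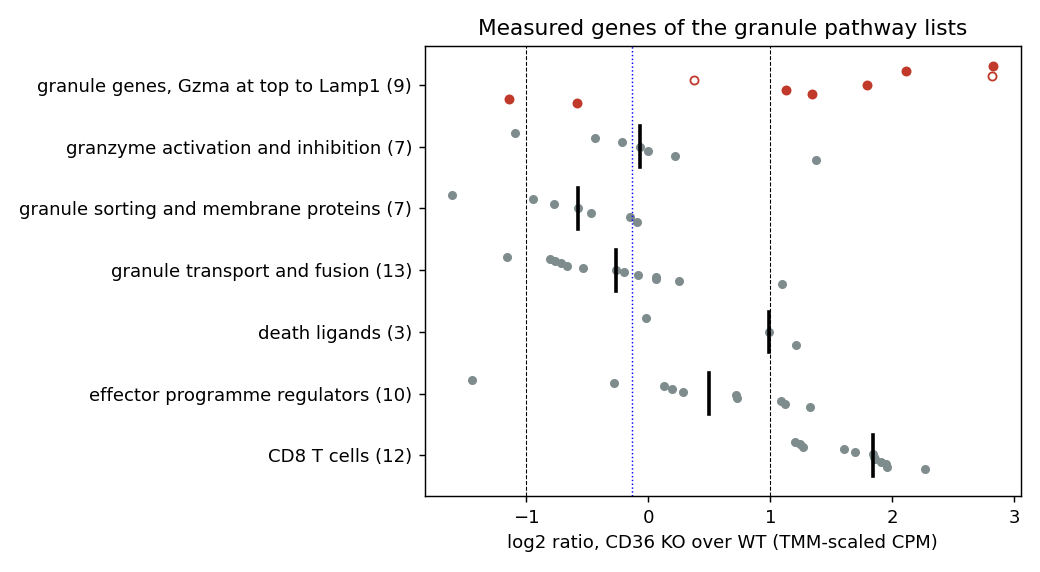
Log2 ratio of CD36 KO over WT (TMM-scaled CPM) for the 9 granule genes (red, in the order named, open where the mean is under 5 CPM) and for the measured genes of each pathway list and of the CD8 T cell list (grey, number in brackets), with a black bar at each grey list's median, dashed lines at 2-fold and a dotted line at the median of all measured genes. The medians of the activation, sorting and transport lists, -0.07, -0.58 and -0.27, lie near the dotted line or left of it, while the 12 CD8 T cell genes lie right of 1.

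Values of single transcripts are estimates, because most reads fit several isoforms, and they are looser than the gene totals. Gzmb has 1 annotated transcript, so its total needs no division. The main Gzma transcript, Gzma-201 of 878 bases, held 325.2 of 360 counts in the CD36 KO library and 26.1 of 43 in the WT library. For Prf1 the longer transcript, Prf1-202 of 2474 bases, held 202 counts in CD36 KO and 38 in WT, and the shorter Prf1-201 of 1968 bases held 39.3 in CD36 KO and 21 in WT. Both estimates were higher in the CD36 KO library. For Gzmk, 6 of 7 WT counts were assigned to a transcript marked for nonsense-mediated decay, against 14.1 of 58 in the CD36 KO library.

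Transcripts that retain introns made up a large part of Ctsw. Its 4 retained-intron transcripts held 48.9 ± 10.3% of its TPM in the CD36 KO library and 49.3 ± 5.2% in the WT library, which is about the same share. With protein-coding transcripts alone the Ctsw log2 ratio was 1.39. For Nkg7 the retained-intron transcript held 17.5 ± 13.8% of the TPM in CD36 KO and 14.1 ± 16.2% in WT, with lanes from 0 upward in both. Srgn was nearly all Srgn-201, a transcript of 938 bases, with 863.1 counts in CD36 KO and 1792.9 in WT, while the longer Srgn-204 had 98.9 counts in CD36 KO and 85.5 in WT. The lower Srgn total in the CD36 KO library thus lay in Srgn-201.

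**Figure D5:**
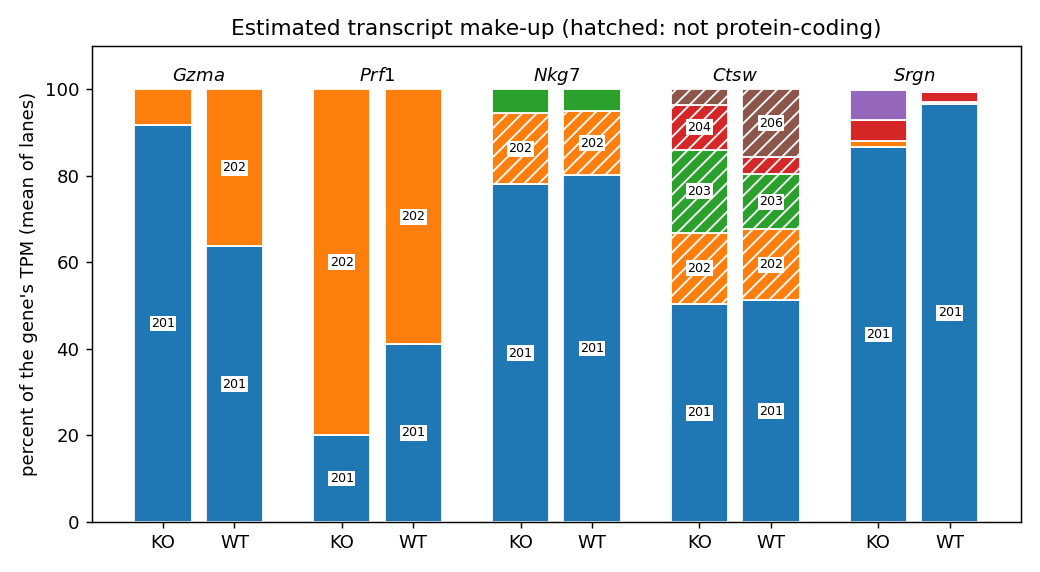
Share of each gene's TPM (mean of 4 lanes of 1 library) assigned to its annotated transcripts, CD36 KO left of WT, with transcript numbers on the larger parts and hatching for transcripts not marked protein-coding. The hatched part of Ctsw is 48.9% in CD36 KO and 49.3% in WT.

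The genes nearest in pattern were sought for Gzma, Gzmb and Prf1 among 6489 protein-coding genes of at least 20 CPM. The measure was the Euclidean distance between log2(CPM + 1) values over the 8 lanes, each taken as the deviation from the gene's own mean. Since the lanes come from 2 libraries, it mostly reads the ratio between them. The 3 members themselves lay under 20 CPM in the mean (Gzma 18.5, Gzmb 5.94, Prf1 14.0), so their own lane noise enters the distances. Nearest to Gzma were Bhmt (distance 0.59), Mug1 (0.59) and Alb (0.60), known as genes of the liver. Nearest to Gzmb were Tdrp (0.75), Skap1 (0.94) and S100a8 (0.97), and nearest to Prf1 were Prkcq (0.32), Cd6 (0.32) and Cmah (0.34). The 6 hepatocyte genes examined summed to 694 to 714 CPM in the CD36 KO lanes and 85.8 to 114 CPM in the WT lanes, and whether they share a source with Gzma was not tested.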

How the data were processed

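RNA of sorted CD8 T cells was sequenced as 1 library per genotype in 4 lanes. The submitters' processing notes name kallisto, DESeq2 and the build GRCm38.p6, without versions, annotation release, read layout or strand setting. The authors deposited estimated counts, which carry no normalisation. TPM, also deposited, were scaled by the authors for effective length and lane total. Per the file headers the other column used is the effective transcript length, which implied mean fragments of 194 to 194.6 bases in CD36 KO lanes and 159.8 to 161.1 in WT lanes, a difference that moves TPM of short transcripts.

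Estimated counts of 142351 transcripts were summed over genes and lanes and rounded. TMM factors from edgeR 4.0.16 (R 4.3.3) were 1.071 for the CD36 KO library and 0.934 for the WT library. Ratios carry exact Clopper-Pearson intervals of the share of counts in 1 library, and differences from the CD8 T cell genes carry exact conditional odds ratio intervals (scipy 1.17.1). The chi-square of counts between lanes, per degree of freedom, was 1.25 within CD36 KO and 1.29 within WT, against 19.7 for lane 1 of each. The members and gene lists were chosen with earlier results of these data known. The text names all members, and up to 4 measured genes per list with the largest ratios beside some added for their role or chosen after their values were seen. For 3 members it names the 3 nearest patterns. Coordinates are GENCODE M21 on GRCm38. Alternatives changed the scaling, the pseudocount, the filter, the transcripts summed and the lanes.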

Additional observations from a re-analysis of the deposited data

How the results depend on the processing

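The calls of Gzma, Gzmb, Prf1, Nkg7 and Ctsw as at least 2-fold higher held with library totals, median-of-ratios factors, both TPM pseudocounts, no filter and protein-coding transcripts alone. With a minimum of 20 CPM, 2 members stayed measured and higher (Nkg7 and Ctsw), and 344 genes were higher and 679 lower over all. The lower call of Srgn ended, leaving 0 members lower, with library totals, with TPM and with protein-coding transcripts alone. Calls on TPM used the size of the log2 ratio alone, without an interval, a looser rule than for counts. On TPM with a pseudocount of 1, 1501 genes were higher and 329 lower, and with 0.1 these were 2291 and 490. The summed granzymes and perforin then stood at a log2 ratio of 2.79 and 2.95, against 2.18 with TMM. Without a filter 2330 genes were higher and 2407 lower. Scaled to the CD8 T cell genes, 35 genes were higher and 10916 lower. Of the members, 1 (Gzma) was then higher and 2 (Srgn and Lamp1) lower, the sum stood at 0.46, and Nkg7 (-0.59) and Ctsw (-0.38) reversed. These shifts follow from the scale itself. Leaving out each lane in turn kept 5 members higher and 1 lower, with the sum between 2.14 and 2.34, 795 to 878 genes higher and 1178 to 1324 lower, and 5 members below the CD8 T cell genes. The number above them was 1 (Gzma) or, without WT lane 1, without CD36 KO lane 3 and with protein-coding transcripts alone, 2 (Gzma and Gzmk). These counts need intervals and were not made on the TPM scale. The log2 ratio of Gzmk, 2.81 with TMM, lay between 2.45 and 3.68 when a lane was left out, at 1.85 with a TPM pseudocount of 1 and at 5.38 with protein-coding transcripts alone. With a TPM pseudocount of 0.1 Gzmk stood at 2.97, Gzma at 3.44 and Nkg7 at 1.74. No paired analysis was possible because the lane numbers mark lanes of 1 library per genotype and no test was run. The depth limits Gzmb, Gzmk and Gzmm most, since their WT levels rest on 21, 7 and 19 counts.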
